A study of Bos taurus with 8 samples.

Results

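Amino acid transporter genes of the SLC1, SLC3, SLC6, SLC7, SLC36, SLC38 and SLC43 families were examined in RNA-sequencing data from bovine conceptuses at day 15, when the trophoblast elongates into a filament before it attaches to the uterus. The members were all genes of the deposited table whose name begins with one of these 7 family names followed by A and digits, with SLC7A1 and SLC7A2 left out. This gave 42 of 15267 genes: 5 in SLC1, 2 in SLC3, 13 in SLC6, 7 in SLC7, 3 in SLC36, 9 in SLC38 and 3 in SLC43. The rule uses names and no measured values. Of 57 symbols listed by substrate for these families, the other 15, among them SLC7A11 and SLC38A4, were not analysed here. In 4 samples, called FLI, the factors FGF2, LIF and IGF1 had been added, and 4 samples were controls. Each sample is 1 of 2 parts of a divided filamentous conceptus from in vitro embryo development, and the title of the study places the work after slow-rate freezing. The labels do not say at which stage the factors were given, whether the 2 groups shared any other agent, or that samples came from separate animals. FLI samples are called 20, 3M, 4M and 50 and controls 10, 20, 3M and 4M, as in their titles.

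Amino acids cross cell membranes through carriers of a few families that differ in substrate and driving force. Sodium-coupled carriers concentrate amino acids in the cell. Many exchangers of the SLC7 family, which work as a light chain joined to an SLC3 heavy chain, then trade these for other amino acids, and facilitators of the SLC43 family let them leave down a gradient. In the ruminant conceptus, amino acids from uterine fluid feed growth of the trophectoderm, and the yolk sac, lined by hypoblast-derived endoderm, also takes up nutrients. Amino acids on the lysosome are sensed by the kinase complex mTORC1, in part through SLC38A9.

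Library totals over the listed genes were 108851495 to 152570016 reads. Levels are the authors' TMM-scaled CPM, the reads of a gene relative to a scaled library total, and 1 read is 0.00646 to 0.00987 CPM. Groups were compared by limma on log2(CPM + 0.5), two-sided, for the 11897 genes with at least 1 CPM in at least 4 samples, with p-values adjusted over all of them by the Benjamini-Hochberg method and a threshold of 0.05. Of the 42 members, 30 passed this filter and 12 did not. Trophoblast markers fixed for the check of tissue were present in every sample, with 10 of 10 listed. Their summed level was 16771 to 23535 CPM in FLI and 12800 to 20967 CPM in control. KRT8 and KRT18 held most of this sum in every sample, with 10694 and 5089 CPM of 16013 CPM in control 10. The sum therefore does not show the levels of the other markers. Control 10 stood apart. It had the highest level of 8 samples in 14 of the 30 tested members (46.7%, against 23.9% of all tested genes) and the lowest in 10 (33.3%, against 28.3%). Log2 differences of single genes are therefore given with and without this sample.

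No member passed the test of FLI against control: limma called 0 of 30 tested members, where 0% of all tested genes were called. The smallest adjusted p among members was 0.970. The edgeR quasi-likelihood test on recovered reads also called 0 members (0% of genes), and DESeq2 called 0 members while it called 9 genes (0.0762%). At an unadjusted p under 0.05 limma listed 1 member among 338 genes (2.84%). This member was lower in FLI, as were 0.95% of tested genes at that p, and 1.89% were higher. The edgeR test listed 0 members and 3.16% of genes at an unadjusted p under 0.05, and DESeq2 2 members and 5.15% of genes. FLI and control overlapped in all 30 tested members, while 1.45% of tested genes had groups that did not overlap, 0.841% with FLI above and 0.605% with FLI below. The mean was lower in FLI for 18 members (60.0%, against 49.2% of tested genes) and higher for 12, with a median log2 difference of -0.14, against 0.0045 over all tested genes. Without control 10 the split was 14 lower and 16 higher, and the median was 0.05.

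By level per length, the leading member was SLC7A4, at 187 ± 33.9 CPM per kb in FLI and 106 ± 89.4 CPM per kb in control (SD, n = 4 each). It was followed by SLC7A8, at 89.8 ± 16.3 CPM per kb in FLI and 128 ± 69.2 CPM per kb in control. SLC3A2 had 92.9 ± 13.8 CPM per kb in FLI and 121 ± 67.0 CPM per kb in control. SLC1A1 stood at 91.7 ± 31.0 CPM per kb in FLI and 95.9 ± 9.97 CPM per kb in control. In FLI all values of SLC7A4 (158 to 229 CPM per kb) were above all values of the other 3 genes (46.8 to 117 CPM per kb), while in control SLC7A4 ran from 16.9 to 216 CPM per kb and overlapped with them. SLC7A8, SLC3A2 and SLC1A1 overlapped with one another in both groups. The next were SLC43A2 and SLC1A5, with means over all 8 samples of 47.2 and 35.1 CPM per kb (SD 18.7 and 14.1). From SLC38A9, at a mean of 21.1 CPM per kb (SD 6.89), the order went down without a gap larger than the spread through SLC38A10, SLC7A6, SLC38A7, SLC43A1, SLC7A5, SLC7A7 and SLC38A6, at 14.1 CPM per kb (SD 5.74). These conceptuses thus had abundant transcripts of a heavy chain and its light chains, a glutamate carrier, a glutamine exchanger and a large neutral amino acid facilitator, and an abundant transcript of a gene whose substrate is not established.

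**Figure D1:**
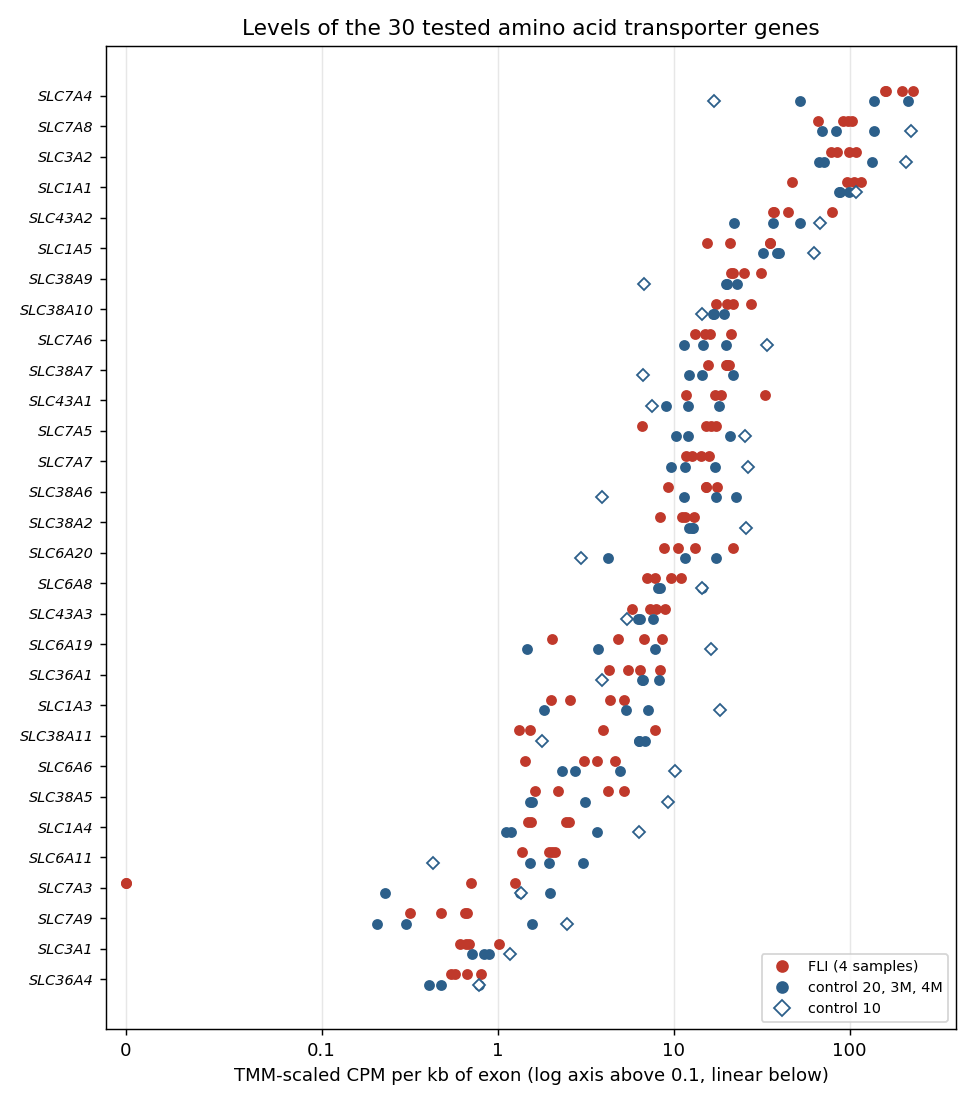
Level of each of the 30 tested members in every sample, in TMM-scaled CPM per kb of exon, on an axis that is logarithmic above 0.1 and linear below. Each point is 1 sample, with FLI in the upper row and control in the lower row of each gene, and control 10 as an open diamond. SLC7A4 leads with a mean of 146 CPM per kb, and control 10 lies at an end of the range in 24 of the 30 genes.

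Acidic amino acid carriers were led by SLC1A1, a sodium-coupled transporter of glutamate, aspartate and cysteine (chromosome 8, 39928081 to 40003010 in build ARS-UCD1.2, as are all positions given). It had 168, 380, 348 and 417 CPM in FLI 20, 3M, 4M and 50, against 388, 354, 313 and 316 CPM in control 10, 20, 3M and 4M. FLI 20 was the low sample and the other FLI samples lay in or above the control range. FLI minus control gave a log2 difference of -0.14 (SE 0.28, adjusted p = 0.973, limma), -0.08 without control 10, and 0.16 without FLI 20. SLC1A3, a second glutamate carrier best known from glia, had 9.94, 7.84, 20.4 and 16.9 CPM in FLI 20, 3M, 4M and 50, against 71.0, 27.7, 7.13 and 20.7 CPM in control 10, 20, 3M and 4M. Control 10 held the high value, and the FLI samples all lay within the range of the controls. The log2 difference of -0.84 (SE 0.63, adjusted p = 0.970, limma) was -0.31 without control 10 and -1.39 without control 3M. SLC1A7, known in other mammals as a retinal glutamate carrier, did not pass the filter and had at most 1.02 CPM.

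The small neutral amino acid exchangers SLC1A5, which carries glutamine, and SLC1A4, which carries alanine, serine and cysteine, belong to the same family. SLC1A5 (ENSBTAG00000013577, chromosome 18, 53864327 to 53893245) was the 1 member with an unadjusted p under 0.05. It had 47.5, 64.3, 108 and 109 CPM in FLI 20, 3M, 4M and 50, against 192, 121, 98.6 and 118 CPM in control 10, 20, 3M and 4M. FLI 20 and FLI 3M lay below all controls, and FLI 4M and FLI 50 lay inside the control range. Its log2 difference was -0.72 (SE 0.31, 95% interval -1.44 to -0.012, adjusted p = 0.970, limma). Without control 10 it was -0.53 with an unadjusted p above 0.05, and across the fits that left out 1 sample each it stayed between -0.89 and -0.49. SLC1A4 had 6.63 to 11.4 CPM in FLI and 4.95 to 28.3 CPM in control, with its highest levels in control 10 and control 20.

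Among heteromeric carriers the heavy chain SLC3A2 (ENSBTAG00000013240, chromosome 29, 41158413 to 41199503), the partner that brings most SLC7 light chains to the plasma membrane, had 239, 173, 186 and 219 CPM in FLI 20, 3M, 4M and 50. In control 10, 20, 3M and 4M it had 463, 295, 157 and 148 CPM. The FLI samples lay together in the middle of a control range that was 3.12-fold wide. Between the groups the log2 difference was -0.23 (SE 0.35, adjusted p = 0.970, limma) and turned to 0.09 without control 10. On recovered reads it was -0.38 by edgeR and -0.41 by DESeq2. SLC3A1, the heavy chain of the renal cystine carrier, was at 1.48 to 2.44 CPM in FLI and 1.73 to 2.85 CPM in control, with a log2 difference of -0.23 (SE 0.22, adjusted p = 0.970, limma) that was -0.12 without control 10 and -0.36 without FLI 50. It shares 348 exon bases with PREPL on the opposite strand, and the strand setting of the counting is not given in the sources used here.

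SLC7A8 (ENSBTAG00000007415, chromosome 10, 21683779 to 21737239), a light chain that exchanges large and small neutral amino acids, was the most abundant of the 4 SLC3A2 partners analysed here. It had 441, 284, 390 and 418 CPM in FLI 20, 3M, 4M and 50, against 949, 592, 298 and 356 CPM in control 10, 20, 3M and 4M. Control 10 and control 20 were above every FLI sample, as for SLC3A2. Control 3M and control 4M were lower than 3 of the 4 FLI samples for SLC7A8, and lower than all 4 for SLC3A2. The log2 difference was -0.38 (SE 0.35, adjusted p = 0.970, limma), -0.07 without control 10, -0.25 without FLI 3M and -0.63 without control 3M. SLC7A5, the light chain for leucine and other large neutral amino acids, was at 31.6 to 83.0 CPM in FLI and 49.4 to 121 CPM in control, and FLI 20 was its lowest sample. SLC7A6 and SLC7A7, light chains that exchange cationic for neutral amino acids, had 72.3 to 117 and 41.3 to 56.1 CPM in FLI, against 63.0 to 186 and 33.8 to 92.9 CPM in control. SLC7A7 shares 265 exon bases with OXA1L on the opposite strand. SLC7A9, the light chain of SLC3A1 in kidney and gut, was low, at 0.887 to 1.87 CPM in FLI and 0.575 to 6.85 CPM in control.

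The make-up of the SLC3A2 complex at the transcript level was compared within each sample per kb of exon. This covers the 4 light chains analysed here, and SLC7A11 is not among them. The summed level of SLC7A5, SLC7A6, SLC7A7 and SLC7A8 was 1.29, 1.37, 1.59 and 1.53 times that of SLC3A2 in FLI 20, 3M, 4M and 50, against 1.46, 1.46, 1.42 and 1.80 times in control 10, 20, 3M and 4M. Over all 8 samples this ratio varied far less than the level of SLC3A2 itself. That spread lay mostly in control, where SLC3A2 ran from 67.4 to 210 CPM per kb, against 78.5 to 109 CPM per kb in FLI. SLC7A8 made up 66.9 ± 5.22% of the light-chain sum in FLI and 70.0 ± 1.69% in control (SD, n = 4 each). SLC7A5 made up 10.7 ± 4.34% in FLI and 9.76 ± 1.05% in control, and its share was 4.73% in FLI 20. In each group the 2 samples with more SLC3A2 (FLI 20 and 50, control 10 and 20) also had the larger light-chain sums.

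The large neutral amino acid facilitators of the SLC43 family had higher means in FLI. SLC43A1 (chromosome 15, 80743589 to 80773253) had 75.2, 42.0, 38.9 and 26.6 CPM in FLI 20, 3M, 4M and 50, against 17.2, 27.4, 41.4 and 20.6 CPM in control 10, 20, 3M and 4M. FLI 20 and FLI 3M were above all controls, FLI 3M by a small margin. Its log2 difference was 0.74 (SE 0.36, 95% interval -0.073 to 1.56, adjusted p = 0.970, limma), 0.56 without control 10, and 0.47 without FLI 20. SLC43A2 had 254, 118, 119 and 143 CPM in FLI 20, 3M, 4M and 50, against 217, 168, 70.9 and 117 CPM in control 10, 20, 3M and 4M. Its log2 difference was 0.19 (SE 0.37, adjusted p = 0.973, limma), 0.42 without control 10, -0.06 without FLI 20 and -0.11 without control 3M. The third family member, SLC43A3, carries purine nucleobases and not amino acids, and was at 16.8 to 25.9 CPM in FLI and 15.8 to 22.2 CPM in control.

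SLC7A4 (ENSBTAG00000009145, chromosome 17, 72369764 to 72376047) resembles the cationic amino acid transporters in sequence, but transport by it has not been established. It had 1325, 931, 1151 and 914 CPM in FLI 20, 3M, 4M and 50, against 97.8, 301, 1249 and 796 CPM in control 10, 20, 3M and 4M. All FLI samples were above 3 of the 4 controls, and control 3M lay above 3 of the 4 FLI samples. The low values of control 10 and control 20 made it the widest-ranging of the abundant members, at 13.6-fold from lowest to highest. On the log2 scale FLI minus control was 1.37 (SE 0.70, 95% interval -0.23 to 2.96, adjusted p = 0.970, limma). It was 0.67 without control 10 and 0.82 by edgeR on recovered reads. Among samples with titles ending in M it was 0.05, and among those ending in 0 it was 2.68.

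SLC7A3, a carrier of arginine, lysine and ornithine, was low and unevenly distributed. It had 0, 1.59, 2.82 and 0 CPM in FLI 20, 3M, 4M and 50, against 3.08, 4.50, 0.515 and 3.02 CPM in control 10, 20, 3M and 4M. The 0 reads in FLI 20 and FLI 50 allow a level of up to 0.0262 and 0.0296 CPM by counting error. On the log2 scale the difference was -1.30 (SE 0.75, adjusted p = 0.970, limma), and -1.19 without control 10. Among samples with titles ending in M it was 0.48, and among those ending in 0 it was -3.08. With 2 FLI samples at 0 reads the value over all 8 samples depends on the pseudocount, and was -2.29 at a pseudocount of 0.1 and -0.95 at 1. NANOG, a pluripotency factor of the embryonic disc, had 0.0175, 1.84, 4.13 and 0.0592 CPM in FLI 20, 3M, 4M and 50, against 3.07, 5.66, 0.903 and 2.63 CPM in control 10, 20, 3M and 4M. Both genes were lowest in FLI 20 and FLI 50, followed by control 3M. The disc marker POU5F1 was lowest in the same samples, at 1.42, 1.01 and 4.80 CPM in FLI 20, FLI 50 and control 3M. SALL4 did not follow this order, with 41.7 CPM in FLI 3M, 49.0 CPM in FLI 50 and 53.2 CPM in control 3M. The 3 listed disc markers (POU5F1, NANOG and SALL4) summed to 37.8 to 81.5 CPM in FLI and 58.9 to 139 CPM in control. SALL4 held most of this sum in every sample. In bulk RNA, fewer cells of a type and less RNA per cell cannot be told apart, and the part of the embryonic disc in the level of SLC7A3 was not tested.

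Among the SLC38 family, system A carriers are sodium-coupled and take up small neutral amino acids, and SLC38A2 is the form known to be induced when amino acids are scarce. SLC38A2 (chromosome 5, 33850777 to 33865222) had 55.8, 39.9, 62.4 and 53.1 CPM in FLI 20, 3M, 4M and 50, against 124, 61.1, 61.9 and 58.8 CPM in control 10, 20, 3M and 4M. Leaving aside control 10, the controls lay within 58.8 to 61.9 CPM and 3 of 4 FLI samples lay below them. The log2 difference was -0.47 (SE 0.26, adjusted p = 0.970, limma), and -0.22 without control 10. SLC38A1, a second system A carrier and its neighbour on chromosome 5, did not pass the filter. It had 0.0236 to 0.128 CPM in FLI, against 1.34, 0.827, 0 and 0.0599 CPM in control 10, 20, 3M and 4M. The same controls 10 and 20 held the mesoderm markers COL1A2 (5.61 and 1.36 CPM) and FOXF1 (4.01 and 2.02 CPM), which were at most 0.172 and 0.246 CPM in the other 6 samples, and both genes are named after their values were seen. Of the other mesoderm and streak markers, EOMES and TBXT were also present in FLI 4M (2.18 and 1.38 CPM) and in control 4M, where EOMES had 2.28 CPM, and MIXL1 and MESP1 were lowest in control 10, at 0.547 and 0.486 CPM. All 6 markers summed to 1.79 to 5.92 CPM in FLI and 3.01 to 15.2 CPM in control. The part of mesoderm in the level of SLC38A1 was not tested. SLC38A5, a system N carrier that moves glutamine with sodium in exchange for protons, was at 3.78 to 12.2 CPM in FLI and 3.55 to 21.6 CPM in control.

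The other SLC38 genes had higher means in FLI, SLC38A11 apart. SLC38A7, a lysosomal carrier of glutamine, had 69.9, 55.8, 72.8 and 71.1 CPM in FLI 20, 3M, 4M and 50, against 23.8, 43.6, 76.7 and 51.6 CPM in control 10, 20, 3M and 4M. Its log2 difference was 0.57 (SE 0.31, adjusted p = 0.970, limma), and 0.27 without control 10. SLC38A9, the lysosomal arginine sensor and carrier, had 70.6, 83.3, 72.3 and 104 CPM in FLI 20, 3M, 4M and 50, against 22.4, 65.7, 76.2 and 66.9 CPM in control 10, 20, 3M and 4M. Control 10 was the lowest sample of both genes. For SLC38A7, control 20 and control 4M also lay below all FLI samples, and control 3M lay above them. For SLC38A9 the other controls lay near the FLI samples. SLC38A10, which is less well characterised (chromosome 19, 51437111 to 51478799), had 147, 108, 117 and 93.3 CPM in FLI 20, 3M, 4M and 50, against 77.9, 91.1, 103 and 90.3 CPM in control 10, 20, 3M and 4M. It varied little, and 3 of 4 FLI samples lay above all controls. Its log2 difference was 0.35 (SE 0.16, 95% interval -0.019 to 0.71, adjusted p = 0.970, limma), 0.28 without control 10, and 0.23 without FLI 20. SLC38A11 had 2.80, 7.24, 14.2 and 2.42 CPM in FLI 20, 3M, 4M and 50, against 3.27, 11.6, 11.6 and 12.6 CPM in control 10, 20, 3M and 4M. Low levels were found in FLI 20, FLI 50 and control 10, and the log2 difference of -0.68 (SE 0.60, adjusted p = 0.970, limma) was -1.11 without control 10 and -1.13 without FLI 4M, against -0.35 without FLI 50 and -0.41 without FLI 20. SLC38A6 was at 16.3 to 30.7 CPM in FLI and 6.85 to 39.3 CPM in control, and its small difference turned to -0.23 without control 10.

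Of the SLC6 family, 5 of 13 members passed the filter. SLC6A20, a carrier of proline and other imino acids, had the highest mean per length over all 8 samples, at 11.3 CPM per kb, against 10.2 CPM per kb for SLC6A8. In control alone SLC6A8 was higher, at 11.4 CPM per kb, against 9.05 CPM per kb for SLC6A20. SLC6A20 had 24.7, 29.6, 60.5 and 37.1 CPM in FLI 20, 3M, 4M and 50. In control 10, 20, 3M and 4M it had 8.26, 32.3, 48.5 and 11.8 CPM, so that the groups overlapped widely. The log2 difference was 0.83 (SE 0.55, adjusted p = 0.970, limma), 0.43 without control 10, and 1.25 without control 3M. SLC6A20 shares 56 exon bases with LZTFL1 on the same strand. SLC6A8, the creatine transporter, had 16.6 to 25.7 CPM in FLI and 19.1 to 34.0 CPM in control, a log2 difference of -0.31 (SE 0.25, adjusted p = 0.970, limma), that was -0.18 without control 10 and also -0.18 without control 4M. SLC6A6, the taurine transporter, was at 9.71 to 31.5 CPM in FLI and 15.8 to 69.0 CPM in control, with control 10 at the top. SLC6A19, an apical carrier of neutral amino acids in gut and kidney, had 29.3, 6.93, 16.5 and 23.0 CPM in FLI 20, 3M, 4M and 50, against 55.2, 26.9, 4.99 and 12.7 CPM in control 10, 20, 3M and 4M. SLC6A11, a GABA transporter, was at 5.76 to 8.92 CPM in FLI and 1.79 to 12.8 CPM in control. The other 8 SLC6 members were at most 2.55 CPM in any sample, among them the monoamine transporters SLC6A2, SLC6A3 and SLC6A4 and the glycine transporter SLC6A9.

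The proton-coupled SLC36 carriers were of low to moderate level. SLC36A1, which exports small amino acids from lysosomes, had 9.72, 7.55, 14.6 and 11.4 CPM in FLI 20, 3M, 4M and 50, against 6.89, 11.6, 11.7 and 14.4 CPM in control 10, 20, 3M and 4M. The log2 difference was -0.04 (SE 0.27, adjusted p = 0.989, limma), -0.24 without control 10, 0.11 without FLI 3M and 0.10 without control 4M. SLC36A4 was at 2.98 to 4.36 CPM in FLI and 2.21 to 4.29 CPM in control. SLC36A2 did not pass the filter: FLI 20 had 5.21 CPM and the other 7 samples 0.129 to 0.561 CPM. SLC38A3 likewise did not pass and was at 0.439 to 1.27 CPM in FLI and 0.155 to 0.716 CPM in control.

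**Figure D2:**
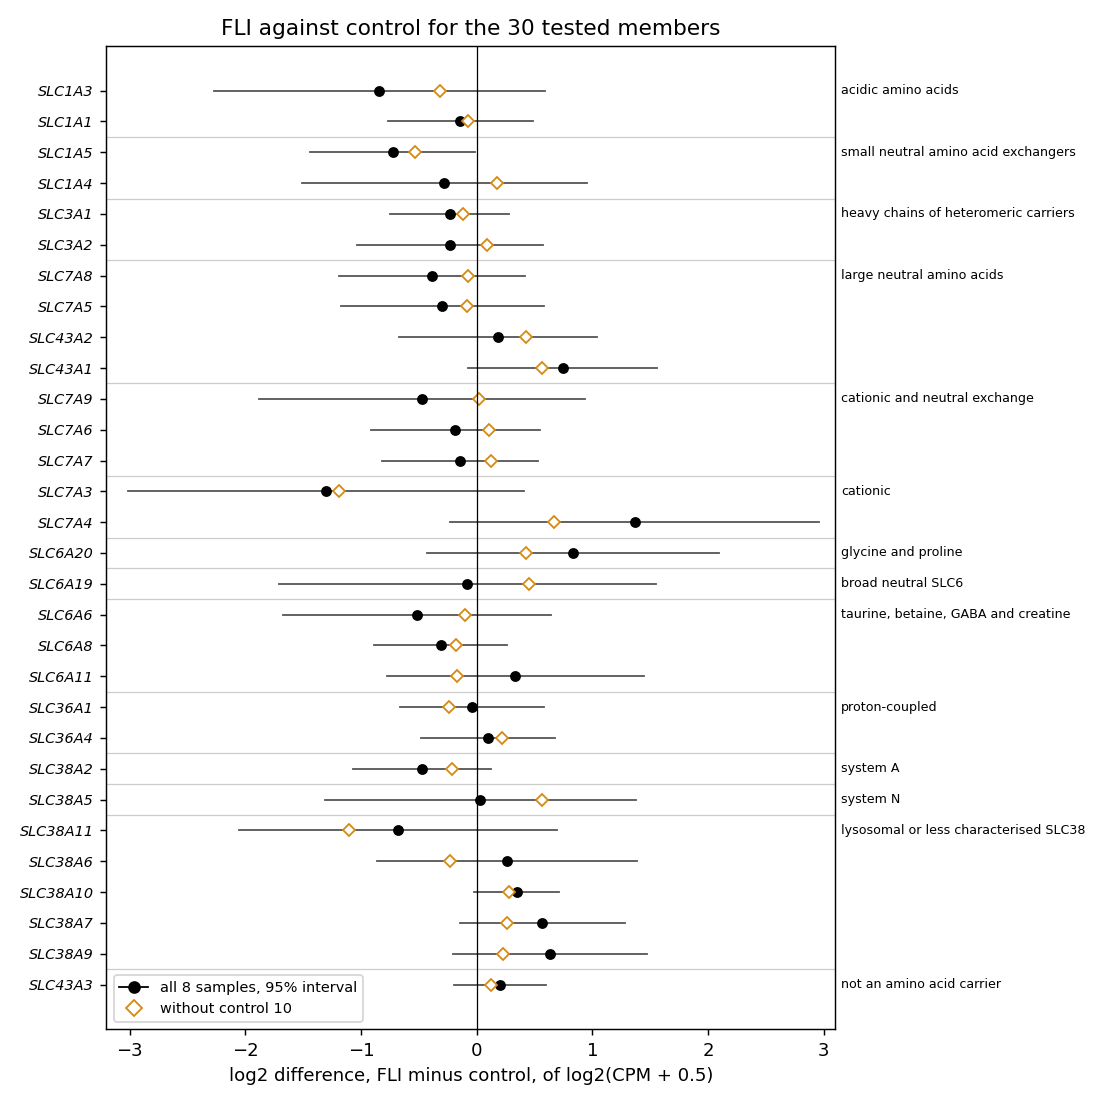
Log2 difference of FLI minus control for each of the 30 tested members, on log2(CPM + 0.5), grouped by substrate. Black points with lines give the fit of all 8 samples with its 95% interval, and open diamonds the difference without control 10, which lies on the other side of 0 for 8 of the 30 genes.

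Levels also varied within each group. The titles of the samples end in 0 or in M, and no label says what this marks. In 8 of the 30 tested members (26.7%) all samples with titles ending in 0 were above all samples ending in M, in either group, where this held for 8.99% of tested genes. These were SLC3A2, its light chains SLC7A6, SLC7A7 and SLC7A8, and SLC7A9, SLC1A4, SLC6A19 and SLC43A2. The opposite order was found in 0 of 30 members and in 9.47% of tested genes. The summed level of hypoblast markers was split in the same way. The sum of 5 genes (GATA4, GATA6, SOX17, FOXA2 and APOA1) was 2286, 1187, 772 and 2218 CPM in FLI 20, 3M, 4M and 50, against 6389, 2846, 607 and 513 CPM in control 10, 20, 3M and 4M. APOA1 held most of this sum, 4 of the 5 genes were split this way on their own while FOXA2 was not (5.91 CPM in FLI 20 and 7.89 CPM in FLI 4M), and none of the 5 genes was at 0 in any sample. GATA4, a transcription factor of hypoblast, had 34.1, 27.8, 29.6 and 43.0 CPM in FLI 20, 3M, 4M and 50, against 91.1, 52.1, 15.7 and 26.2 CPM in control 10, 20, 3M and 4M. Samples with much SLC3A2 were those with much hypoblast RNA, and the part of hypoblast in the levels of these carriers was not tested.

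**Figure D3:**
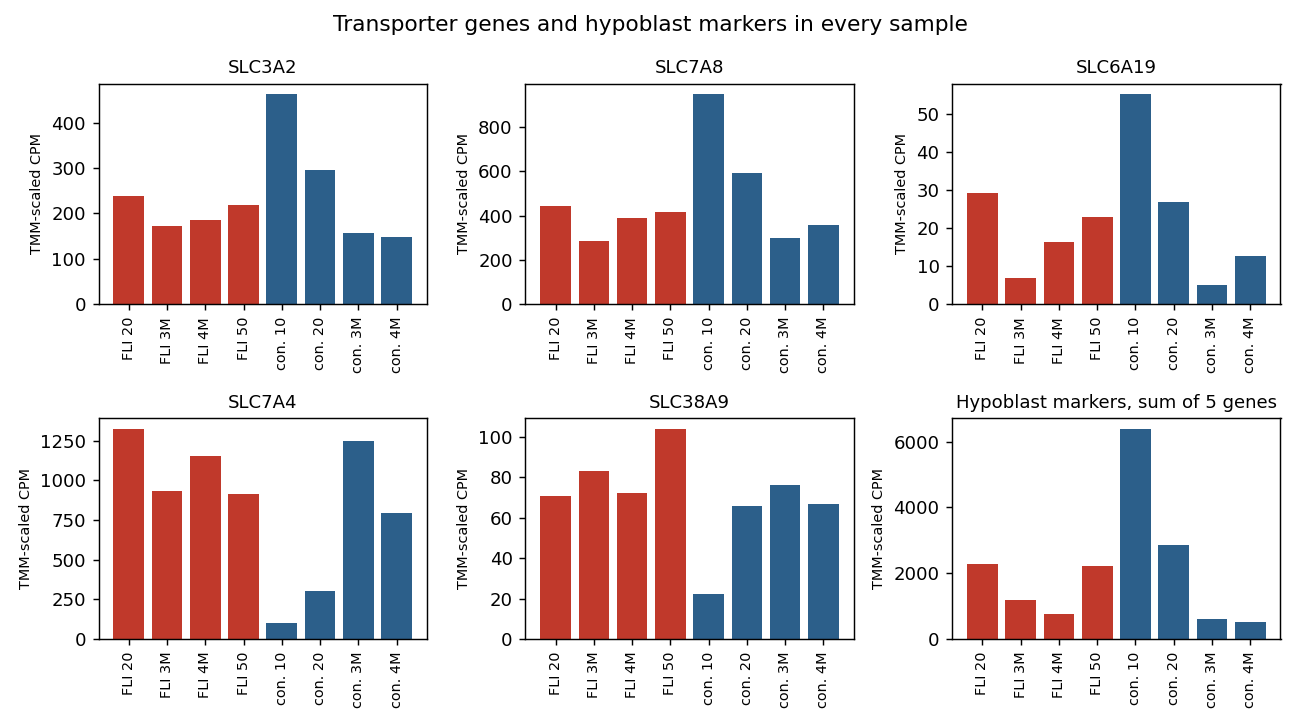
Level in TMM-scaled CPM of 5 transporter genes and of 5 summed hypoblast markers in each sample, FLI in red at the left and control (con.) in blue at the right of each panel. SLC3A2, SLC7A8 and SLC6A19 are highest in control 10, where the hypoblast sum is also highest at 6389 CPM, and SLC7A4 and SLC38A9 are lowest there, at 97.8 and 22.4 CPM.

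SLC7A4 and the lysosomal carriers SLC38A7 and SLC38A9 were lowest in control 10, where 6 of the 10 trophoblast markers (GATA2, GATA3, TFAP2A, TFAP2C, DLX3 and CDX2) were lowest as well. They are among the 10 members lowest there (33.3%), near the 28.3% of all tested genes. The markers KRT8, KRT18, ELF5 and IFNT2 were not lowest there, and KRT8 had 10694 CPM in control 10 against 6804 CPM in control 4M. TFAP2C had 220, 205, 205 and 170 CPM in FLI 20, 3M, 4M and 50, against 24.4, 153, 225 and 273 CPM in control 10, 20, 3M and 4M. GATA3 had 221, 142, 81.7 and 95.9 CPM in FLI 20, 3M, 4M and 50, against 11.7, 61.2, 98.6 and 89.4 CPM in control 10, 20, 3M and 4M. Control 10 thus combined the lowest level of these 6 factors with the highest hypoblast sum, and their part in the carriers' levels was not tested.

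Within titles ending in 0, 19 of 30 members were lower in FLI with a median log2 difference of -0.49, while 47.2% of all tested genes were lower (median 0.023). Within titles ending in M, 9 were lower and 21 higher, with a median of 0.12, while 50.9% of all tested genes were lower (median -0.0053). All 7 tested SLC7 members were higher in FLI among titles ending in M, and 6 of 7 were lower among titles ending in 0. Their log2 differences among titles ending in M ran from 0.03 (SLC7A8) to 0.49 (SLC7A5), so that some were near 0. The SLC43 genes were higher in FLI for 3 of 3 members among titles ending in M and for 2 of 3 among titles ending in 0. With 2 samples a group in each split, these values are descriptions, and the difference between the splits was not tested.

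Other genes of amino acid biology were read from the same fit, from lists chosen with earlier results known. Over all tested genes in this fit, 0% were called and 49.2% had a lower mean in FLI. Of 25 tested genes of mTORC1 amino acid sensing, 0 were called, 18 had a higher and 7 a lower mean in FLI, with a median log2 difference of 0.12. SESN2, a leucine sensor that restrains mTORC1, had 80.1, 56.3, 38.9 and 61.5 CPM in FLI 20, 3M, 4M and 50, against 21.0, 40.4, 37.6 and 45.5 CPM in control 10, 20, 3M and 4M. FNIP2, a partner of folliculin, was above all controls in every FLI sample, at 18.7 to 29.8 CPM in FLI and 11.5 to 18.1 CPM in control. These 2 of 25 genes had an unadjusted p under 0.05 (limma), as did 2.84% of all tested genes, and did not pass adjustment. FNIP2 was the 1 gene of this list whose groups did not overlap, by a small margin, as was found for 1.45% of all tested genes. Both genes are named after their values were seen. Of 20 cytosolic aminoacyl-tRNA synthetases, which charge tRNAs with amino acids, 0 were called, 14 were lower and 6 higher, with a median of -0.11. Of 19 genes of amino acid synthesis and glutamine use, 0 were called, 11 were lower and 8 higher (median -0.12). Of 10 other carriers of amino acids and peptides, 0 were called, 4 were lower and 6 higher (median 0.21). Without control 10, mTORC1 sensing had 10 lower and 15 higher (median 0.04), and the synthetases 16 lower and 4 higher (median -0.13). Synthesis and glutamine use then had 9 lower and 10 higher (median 0.002), and the other carriers 5 lower and 5 higher (median 0.03).

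Of 32 genes with an adjusted p under 0.05 in the authors' deposited table (0.21% of 15267), 0 were members. At an unadjusted p under 0.05 the authors' deposited table has 5 of the 42 members and 808 of all genes (5.29%). The authors' deposited table gives SLC1A5 a log2 fold change of -0.63 and SLC43A1 one of 0.72. For SLC7A4 the authors' deposited table has 0.98 and for SLC38A1 -2.75. The smallest adjusted p of a member in the authors' deposited table was 0.260, for SLC1A7, with a log2 fold change of 3.56. SLC1A7 had 0.830, 0.0236, 1.02 and 0.257 CPM in FLI 20, 3M, 4M and 50, against 0.0380, 0.569, 0 and 0.0299 CPM in control 10, 20, 3M and 4M, so that the groups overlapped at levels of about 1 CPM or less. Its means of 0.532 CPM in FLI and 0.159 CPM in control lie closer together than that fold change. For SLC36A2 the authors give -0.39, though its mean was 1.43 CPM in FLI and 0.331 CPM in control. The authors' fold changes are thus not plain ratios of these group means.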

How the data were processed

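The study sequenced RNA of 8 samples from divided conceptuses after poly-A enrichment with a stranded kit, per the labels. FastQC, HISAT2, featureCounts and edgeR are named in the submitters' processing notes, with the build ARS-UCD1.2 and with versions and strand setting not given in the sources used here. All values deposited per sample are a normalized signal, CPM over library totals scaled by TMM. In every column they are whole multiples of 1 step (100% within 0.001), so whole reads were recovered. The deposited table also holds the authors' log2 fold change, a likelihood ratio score, p-values and the exon length used for CPM per kb. Gene names come from the deposited table.

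Samples were grouped by the treatment label. limma 3.58.1 (eBayes with trend, R 4.3.3) was run on log2(CPM + 0.5) across all genes that passed the filter. Tests with edgeR 4.0.16 and DESeq2 1.42.0 on recovered reads were alternatives. Members and lists were chosen with earlier results of these data known. Log2 differences are printed for the 8 lower and 4 higher members of smallest p, SLC3A2, and the member of highest mean in each of 7 families; others, such as the values of SLC1A7, SLC38A1 and SLC38A9, are given by levels. Deviations of same-numbered samples (20, 3M, 4M) correlated at 0.133, 0.351 and 0.359, so those 6 samples were also fitted with the number as block. Some samples of unlike number also correlated, such as FLI 4M with control 3M at 0.312 and FLI 20 with control 10 at 0.280. Others went the opposite way, down to -0.385 for FLI 3M with control 10. The correlations of the same-numbered 3M and 4M were the highest of all, while that of 20 with 20 was below FLI 20 with control 10. Neither the labels nor these values settle whether the numbers mark pairs, and the main fit treats all samples as unpaired. Floors (3 reads) cover counting error alone. The intervals come from the limma fit and, like the p-values, measure the spread between these samples. A pair of genes, 1 of them a hypoblast marker that was left out of the summed level, is not reported here by name.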

Additional observations from a re-analysis of the deposited data

Results flagged for a closer look

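Of 84 groups of 4 samples (42 genes in 2 groups), 7 held a sample whose gap to the nearest other sample, relative to the range of the group, exceeded Dixon's 95% critical value, and chance flags about 1 in 20 groups. Of these, 3 genes stood out in FLI 20, all of low level: SLC36A2 had 5.21 CPM there (other FLI samples 0.141 to 0.199), SLC6A4 had 2.55 CPM (others 0.503 to 0.735) and SLC38A3 had 1.27 CPM (others 0.439 to 0.526). Control 10 stood out in SLC38A2, at 124 CPM (other controls 58.8 to 61.9), and in SLC38A11, at 3.27 CPM (others 11.6 to 12.6). SLC38A7 had 55.8 CPM in FLI 3M (other FLI samples 69.9 to 72.8). SLC1A7 had 0.569 CPM in control 20 (other controls 0 to 0.0380).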

How the results depend on the processing

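Across 20 alternative fits, 0 members were called, and the smallest adjusted p of a member was 0.339. Over all genes 19 of them called 0, and DESeq2 on recovered reads called 9. The median log2 difference of the members, -0.14, ranged from -0.34 to 0.05 in the fits without 1 sample, stayed within the replicate SD of 0.26 in all except titles ending in 0 (-0.49), and was -0.24 with library size alone, where the median of all genes was -0.09. With the title number as replicate block on 6 samples the median was -0.05, and the block changed no call. At an unadjusted p under 0.05 (limma) the fit with the block listed 806 genes and 1 member. The same 6 samples without the block gave 197 genes and 0 members. For the 17 named members, 323 values kept their sign and 15 reversed, and SLC3A1 and SLC7A3 gave no value at a mean of at least 5 CPM. SLC3A2 was 0.054 with the block and on the same 6 samples without it (a fit added after seeing the data), 0.23 among titles ending in M, and -0.45 to 0.091 without 1 sample. Among titles ending in M, SLC7A3 was 0.48, SLC1A3 0.054, SLC7A8 0.033 and SLC1A1 0.21. Among titles ending in 0, SLC36A1 was 0.22 and SLC43A2 -0.0005. Without 1 sample, SLC1A1 ran from -0.28 to 0.16, SLC43A2 from -0.11 to 0.42 and SLC36A1 from -0.24 to 0.11. The cause of these reversals was not tested. With 4 samples a group, differences of the sizes found here did not pass adjustment.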
